A study of Mus musculus with 8 samples.

Results

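The genes described here form the core of the Sonic hedgehog (Shh) pathway: the ligand Shh, its receptor Ptch1, the decoy receptor Hhip, the co-receptor Boc, the signal transducer Smo, the transcription factors Gli1, Gli2 and Gli3, and Sufu, which restrains the Gli factors. Members were chosen by symbol in the platform's probe annotation, and every probe of each was used. Of the 9 genes, 8 had a probe, 12 probes in all among the 25697 on the array, and Gli2 was not analysed here. Illumina BeadArrays measured RNA from mouse cerebellum at embryonic day 17.5, with an array per animal. The 4 wild-type animals (WT) had the genotype Pals1 fl/fl without Cre, and the 4 conditional knockouts (CKO) had the same floxed allele with hGFAP-Cre. This transgene drives the recombinase in neurons and glia of the cerebellum but not in every cell of the tissue, so the CKO RNA also comes from cells without recombination. The series asks how the polarity scaffold Pals1 bears on the dividing state of cerebellar progenitors.

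In the developing cerebellum Shh is secreted by Purkinje cells and drives division of granule cell progenitors in the external granular layer. Without ligand, Ptch1 keeps Smo inactive. Ligand binding, aided by co-receptors such as Boc, releases Smo at the primary cilium, and Gli factors then switch on targets that include Gli1, Ptch1 and Hhip, and Ptch1 and Hhip in turn dampen the signal.

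Windows of promoter sequence are shown for Smo, the member that fell on all its probes, and for Ptch1 and Hhip, genes known as Gli targets. They come from RefSeq on build GRCm38.p6 and hold the 250 bases before the listed start, 5′ to 3′ on the gene's strand, with a GC box (GGGCGG on either strand) in capitals. The Smo window is chr6:29735247-29735496 on the plus strand, the Ptch1 window chr13:63565736-63565985 on the minus strand, and the Hhip window chr8:80058009-80058258 on the minus strand. The start listed for Ptch1 lies within the annotated span of that gene.
Smo: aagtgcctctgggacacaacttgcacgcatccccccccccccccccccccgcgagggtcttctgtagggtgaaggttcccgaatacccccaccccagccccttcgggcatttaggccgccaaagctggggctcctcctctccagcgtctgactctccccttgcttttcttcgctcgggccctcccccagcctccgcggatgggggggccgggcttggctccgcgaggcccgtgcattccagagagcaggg
Ptch1: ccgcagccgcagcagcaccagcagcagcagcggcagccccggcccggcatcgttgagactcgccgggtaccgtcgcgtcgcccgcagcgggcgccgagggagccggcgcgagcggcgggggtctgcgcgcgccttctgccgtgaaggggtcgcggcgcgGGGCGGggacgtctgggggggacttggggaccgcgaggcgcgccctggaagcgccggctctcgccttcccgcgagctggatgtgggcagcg
Hhip: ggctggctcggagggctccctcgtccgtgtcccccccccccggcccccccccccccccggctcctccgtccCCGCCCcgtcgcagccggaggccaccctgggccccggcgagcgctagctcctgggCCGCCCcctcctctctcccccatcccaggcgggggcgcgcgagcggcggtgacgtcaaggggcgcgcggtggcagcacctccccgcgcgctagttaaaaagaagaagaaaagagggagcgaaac
The Smo window holds 0 GC boxes, the Ptch1 window 1 and the Hhip window 2, and GC content is 68.4%, 78.4% and 76.0%. A window was listed for 6 of the 9 genes (Smo, Ptch1, Hhip, Gli2, Gli3 and Sufu). Of these 5 hold a GC box, as do 32.7% of all 32851 windows of this length. The Gli consensus GACCACCCA, searched on both strands, is in 0 of the 6 and in 0.225% of all windows. These letters can lie outside such a window, and nothing on Gli binding follows from their absence here.

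The array data separated the genotypes. Median intensities lay between 118.7 and 133.5 on the 8 arrays. CKO and WT lay apart on the first principal component (47.65% of the variance), and CKO.3 lay apart on the second (16.18%). Mpp5, which encodes Pals1, fell on its brighter probe from a log2 level of 7.06 in WT to 6.20 in CKO (limma adjusted p = 7.17e-06). The CKO level is too dim to fix the size of the fall. It was -0.87 here and -1.34 to -0.53 across the alternative settings that take this probe by itself. Averaged with the second Mpp5 probe, which was too dim to be tested (difference 0.03), it was -0.42. The X-inactivation RNA Xist was at 122.9 in WT.3 and 112.1 to 116.0 in CKO but at 830.9 to 1210.7 on the other WT arrays, so that the sex of the animals is nearly confounded with genotype. A log2 level below means normexp-corrected, quantile-normalized intensity. A probe was tested where its mean level exceeded the lower quartile of all probes, 6.26, and called at a Benjamini-Hochberg adjusted p under 0.05 in the limma fit over all 19272 tested probes. Probes differ in their response, so that the levels of different genes are not ranked.

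The ligand and its transducer had opposite shifts: Shh was higher and Smo lower in CKO, while no probe of the other members was called. Sex is nearly confounded with genotype on these arrays, and both calls were lost with the Xist level as a covariate. Of the 12 probes 11 were tested, 3 fell, 1 rose and 7 were not called. Among all tested probes 7.98% were called lower and 8.15% higher. The 3 falls are the 3 probes of Smo and thus a single gene. By gene, 1 of the 7 tested members was called lower and 1 higher, against 8.5% and 8.97% of all genes by their brightest probe. With so few genes these counts do not stand apart from those shares. On 5 of the 12 probes the groups did not overlap, against 19.7% of all tested probes, and the 3 Smo probes are among the 5.

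**Figure D1:**
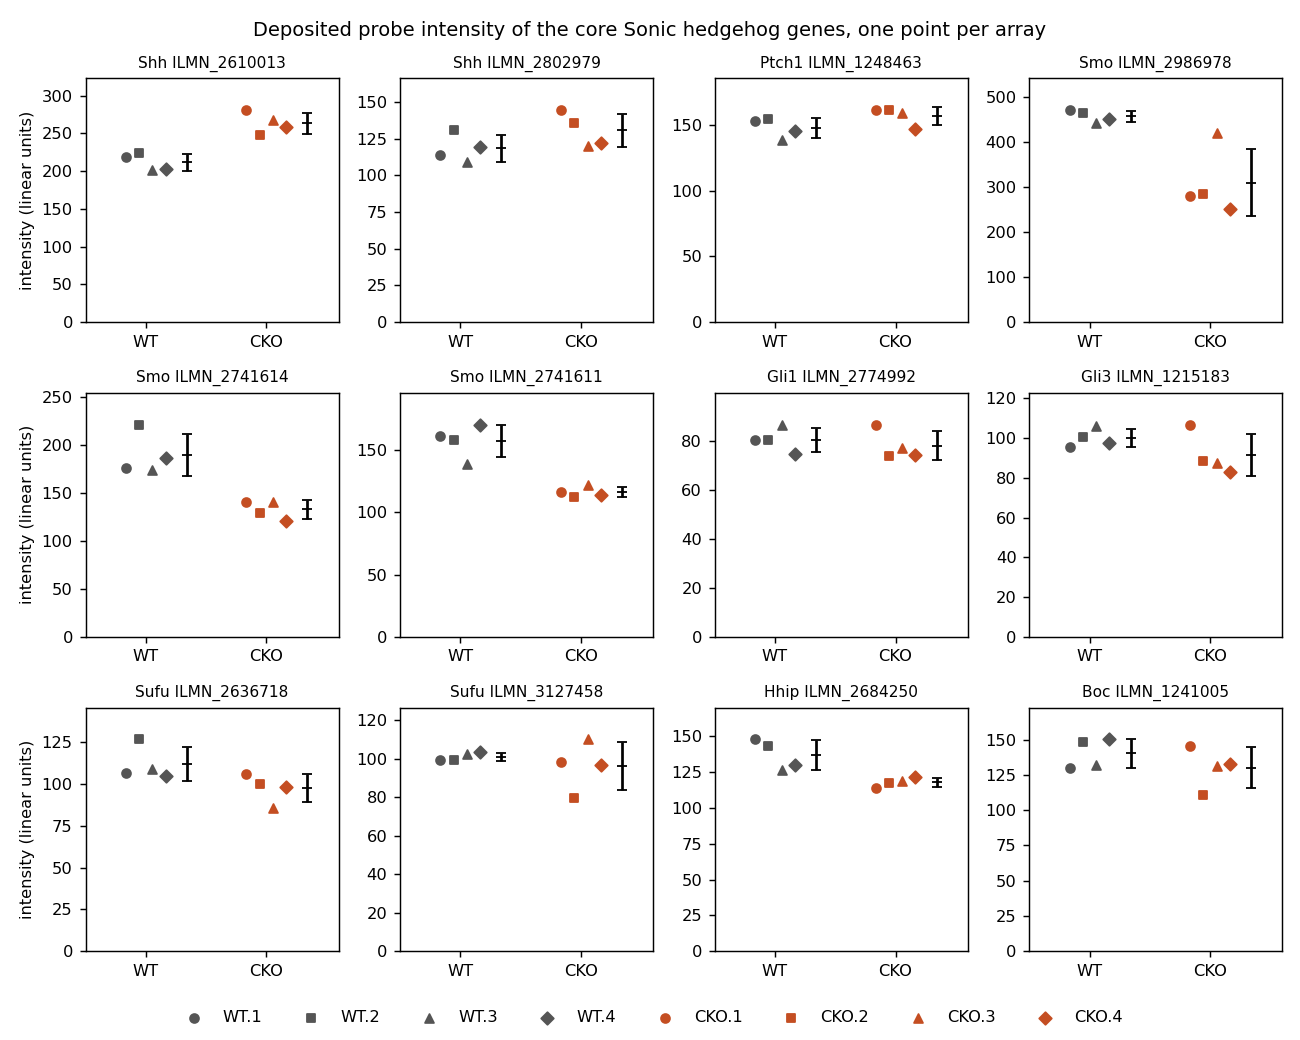
Deposited intensity of the 12 probes of the core genes (linear units, axes from 0), with a point per array and the mean ± SD (n = 4) beside each group. The CKO points lie above WT on the Shh probe ILMN_2610013 and below WT on all 3 Smo probes, with CKO.3 at 420.3 on the brightest Smo probe.

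Shh, the secreted ligand, was higher in CKO on its brighter probe. ILMN_2610013 had WT intensities of 218.3, 224.7, 202.2 and 202.4 and CKO intensities of 280.8, 247.4, 267.6 and 258.1, in order of replicate number. Every CKO array was above every WT array. WT had a log2 level of 7.60 ± 0.033 (SD, n = 4) and CKO one of 8.02 ± 0.065 (SD, n = 4), a rise of 0.41 (SE 0.07, 95% interval 0.27 to 0.55, limma adjusted p = 9.03e-04), or 1.33-fold. The second probe, ILMN_2802979, was dimmer. It had WT intensities of 113.7, 131.0, 109.2 and 119.5 and CKO intensities of 144.4, 135.7, 120.3 and 122.1, and the groups overlapped. Its log2 difference was 0.21 (95% interval 0.03 to 0.39, limma adjusted p = 0.11), which did not pass. Without CKO.3 this probe was at 0.27 (limma adjusted p = 0.0357, 0.0357 to 0.278 across alternative settings).

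Purkinje cell markers, which mark the cells that make Shh, moved in the same direction. Of 7 tested markers 5 rose and 0 fell (at an unadjusted p under 0.05, 6 and 0), with a median log2 change of 0.62, against 8.97% of genes called higher by their brightest probe and a median of 0.0075 over all genes. Foxp2, a forkhead factor, rose by 0.90, Ebf2 by 0.86 and Rora, a nuclear receptor, by 0.68 (limma adjusted p = 9.76e-05, 3.29e-05 and 5.16e-05). The summed intensity of the 9 markers with a probe was 10177 to 11619 in WT and 14855 to 17406 in CKO. Calb1 and Pcp4 were too dim to be tested. The part of these markers in the Shh result was not tested. In whole tissue, more or fewer cells of a type and more or less RNA per cell cannot be told apart. Nor can a changed share of these cells as other cells grow more or fewer, since normalized levels are relative.

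Smo, the membrane protein that passes the signal on, fell on each of its probes. The brightest, ILMN_2986978, had WT intensities of 471.4, 464.8, 442.9 and 450.8 and CKO intensities of 281.5, 285.9, 420.3 and 252.5. All CKO arrays were below all WT arrays, with CKO.3 close to WT. WT had a log2 level of 8.76 ± 0.043 (SD, n = 4) and CKO one of 8.23 ± 0.293 (SD, n = 4), a change of -0.52 (SE 0.12, 95% interval -0.77 to -0.28, limma adjusted p = 0.00721), or 1.44-fold lower. Without CKO.3 it was -0.66 (limma adjusted p = 5.21e-05, 5.21e-05 to 0.186 across alternative settings).

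The other Smo probes did not set CKO.3 apart. ILMN_2741614 had WT intensities of 176.4, 220.9, 174.1 and 186.1 and CKO intensities of 140.9, 129.1, 140.5 and 120.3, a log2 change of -0.49 (SE 0.08, limma adjusted p = 0.00115). ILMN_2741611 had WT intensities of 161.1, 158.3, 139.3 and 170.5 and CKO intensities of 116.8, 112.8, 121.9 and 113.8, a log2 change of -0.42 (SE 0.08, limma adjusted p = 0.00214). On both, every CKO array was below every WT array. The log2 level in CKO.3 was 8.65 against 7.99 to 8.22 on the other CKO arrays for the brightest probe, and 6.99 against 6.87 to 6.98 for ILMN_2741614. Where each probe lies in the Smo transcript is not known here.

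Markers of granule cell progenitors, which respond to Shh, were lower in CKO. All 5 tested markers fell, with a median log2 change of -1.30, against 8.5% of genes called lower by their brightest probe. The changes were -1.84 for Mfap4, a microfibril protein, -1.53 for Insm1, a zinc-finger factor, and -1.30 for Barhl1, a homeobox factor (limma adjusted p = 3.71e-04, 9.46e-06 and 1.17e-06). Summed intensity over the 7 markers with a probe was 15796 to 21850 in WT and 8626 to 11873 in CKO. The defining factors Atoh1 and Pax6 were too dim to be tested. Averaged over the tested markers, the deviation from the mean of the 8 arrays was 0.51 to 0.70 in WT, -0.23 in CKO.3 and -0.75 to -0.62 on the other CKO arrays. The markers did not share this gap equally. In CKO.3 Mfap4 was at 9.305 against 7.728 to 8.107 on the other CKO arrays, and Insm1 at 10.19 against 9.365 to 9.757. Meis1 was at 11.27 against 11.05 to 11.17, while Barhl1 (8.478) and Zic1 (12.73) lay within the range of the other CKO arrays. For markers of meningeal fibroblasts the averaged deviation was 1.19 in CKO.3, -0.20 to 0.035 on the other CKO arrays and -0.42 to 0.042 in WT. Of these 8 markers 0 were called (at an unadjusted p under 0.05, 3 higher). The part of these cells in the Smo result was not tested.

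**Figure D2:**
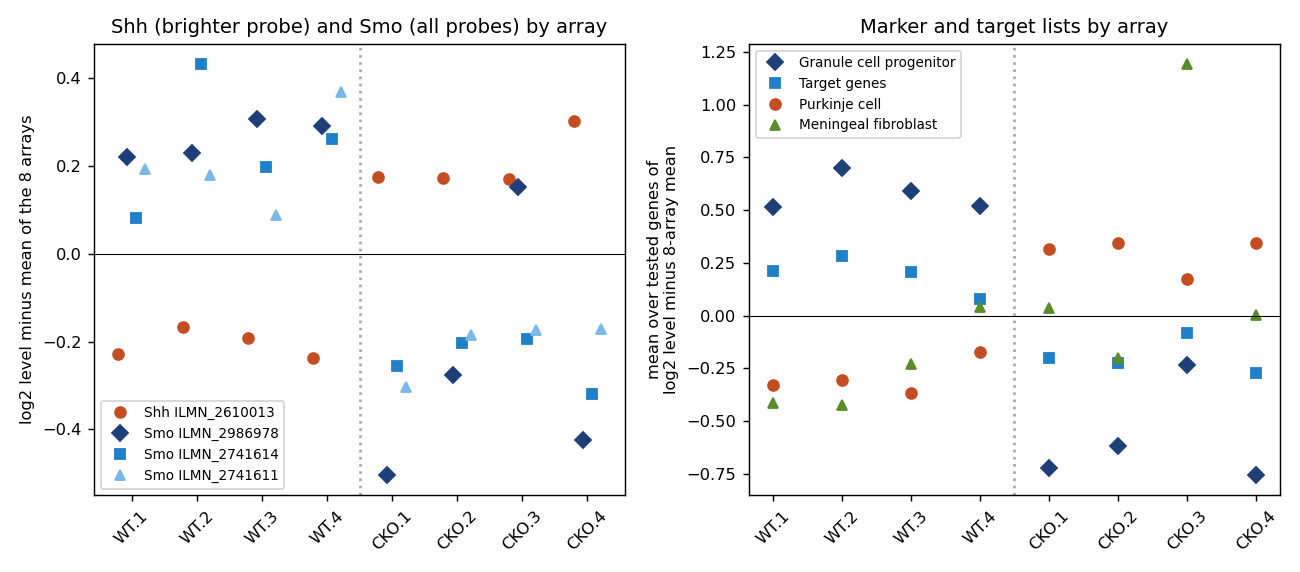
Left, log2 level minus the mean of the 8 arrays for the brighter Shh probe and the 3 Smo probes; right, the mean of that deviation over the tested genes of 4 lists, a point per array. CKO.3 lies at 0.15 for the brightest Smo probe and at 1.19 for meningeal markers, apart from the other CKO arrays, but not on the other Smo probes.

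Ptch1, the Shh receptor and a Gli target, was not called. ILMN_1248463 had WT intensities of 152.9, 154.1, 138.3 and 145.4 and CKO intensities of 161.1, 161.1, 158.7 and 146.8, which overlap before normalization. On the log2 scale the CKO levels, 7.14 to 7.33, lay above the WT levels, 7.02 to 7.09. The difference was 0.16 (SE 0.07, 95% interval 0.01 to 0.30, limma adjusted p = 0.14).

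Hhip, a membrane-anchored protein that binds and holds Shh and is also a Gli target, had a difference of the opposite sign that did not pass either. Its probe ILMN_2684250 had WT intensities of 147.8, 143.4, 126.7 and 129.9 and CKO intensities of 114.1, 117.1, 118.6 and 121.6. The intensities did not overlap, but after normalization CKO.4, at 6.89, lay just above WT.3, at 6.88. The log2 difference was -0.18 (SE 0.08, 95% interval -0.34 to -0.02, limma adjusted p = 0.133).

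Boc, an immunoglobulin-family co-receptor of Shh, had overlapping groups. ILMN_1241005 had WT intensities of 129.7, 148.4, 132.3 and 150.1 and CKO intensities of 145.5, 110.6, 131.4 and 132.6. The log2 difference was -0.07 (95% interval -0.25 to 0.12, limma adjusted p = 0.674), an interval that allows a change of either sign.

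The probes of the Gli factors were dim. Gli1, the factor whose own transcription rises with pathway activity, had WT intensities of 80.5, 80.7, 86.7 and 74.8 and CKO intensities of 86.8, 74.1, 77.4 and 74.3 on ILMN_2774992. These lay at percentiles 8.01 to 22.4 of all probes on the WT arrays and 8.37 to 18.8 on the CKO arrays, and the probe was not tested. A level this close to background says little about Gli1 in either group. Gli3, which acts mainly as a repressor when the pathway is off, had WT intensities of 95.6, 100.6, 106.2 and 97.7 and CKO intensities of 106.7, 88.7, 87.7 and 82.8 on ILMN_1215183. The groups overlapped, and the log2 difference was -0.12 (95% interval -0.29 to 0.06, limma adjusted p = 0.394). Of the members, Gli3 was the tested probe just inside the limit on brightness, with a mean of 6.45 in WT and 6.33 in CKO, and Gli1 lay outside it at 6.09 and 6.07.

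Sufu, which holds Gli proteins in the cytoplasm, had 2 probes, neither called. ILMN_2636718 had WT intensities of 106.3, 126.6, 109.0 and 104.9 and CKO intensities of 106.1, 99.8, 85.9 and 98.4, a log2 difference of -0.17 (95% interval -0.36 to 0.01, limma adjusted p = 0.213). ILMN_3127458 had WT intensities of 99.2, 99.2, 102.4 and 103.4 and CKO intensities of 98.4, 79.9, 110.1 and 96.9, a log2 difference of -0.05 (95% interval -0.24 to 0.14, limma adjusted p = 0.752). CKO.3 was the lowest of the 8 arrays on the first probe and the highest on the second, so the probes did not rank the arrays alike.

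**Figure D3:**
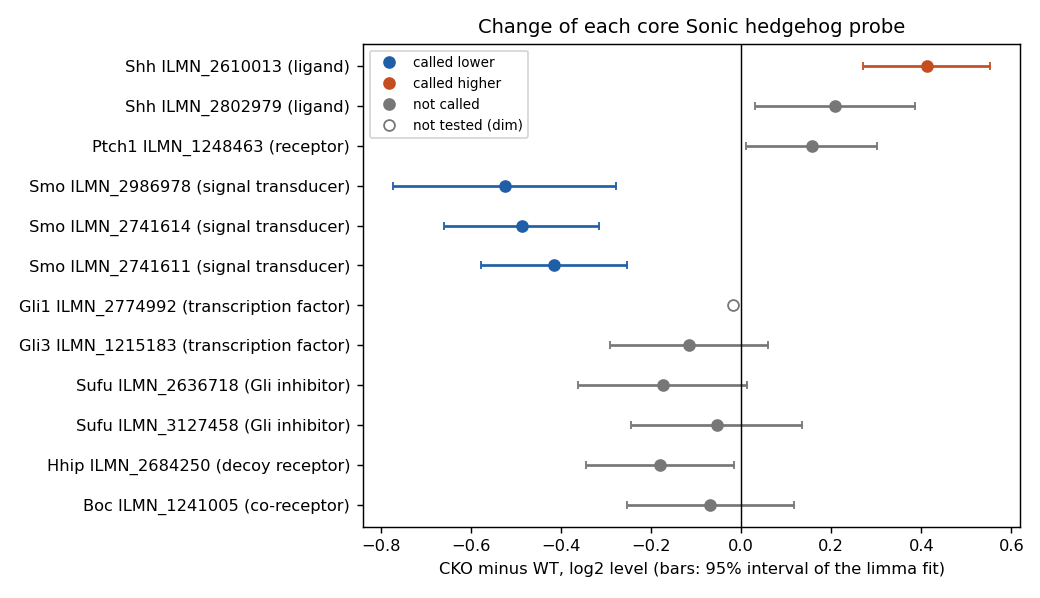
Difference CKO minus WT in log2 level for each of the 12 probes, with the 95% interval of the limma fit (n = 4 a group); the Gli1 probe was not tested and has no interval. The Smo points lie between -0.52 and -0.42 and the brighter Shh probe at 0.41.

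Differences in change between core genes were taken on the per-array difference of their brightest probes, with an exact two-sided permutation test. The 11 pairs that hold Shh or Smo were chosen with the calls of both genes known, and the test was then run, after the data had been seen, over all 21 pairs of the 7 tested genes. None of the 21 passed after adjustment (smallest exact p = 0.0286, which 9 pairs reached and below which the 70 assignments do not go, adjusted p = 0.0667). Over the 11 chosen pairs alone 7 would pass (adjusted p = 0.0449), a count that rests on how the pairs were chosen. The change of Shh lay above that of Smo by 0.94, of Hhip by 0.59, of Sufu by 0.59, of Gli3 by 0.53, of Boc by 0.48 and of Ptch1 by 0.26 on the log2 scale, and in each of these pairs the 4 CKO differences lay apart from the 4 WT differences. The change of Ptch1 lay above that of Smo by 0.68, of Hhip by 0.34 and of Sufu by 0.33, also without overlap. The change of Smo differed from those of Gli3, Sufu, Hhip and Boc by -0.41, -0.35, -0.34 and -0.46, with overlapping arrays (exact p = 0.0857 to 0.143). The pairs share genes and arrays and are not independent of each other. The brightest probes of Shh, Smo and Ptch1 each lacked overlap on their own log2 levels. The separations in their pairs are thus not evidence apart from those levels.

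Among the other genes on the ligand side of the pathway, Scube2 was the one called. Of 10 genes with a probe 7 were tested, 1 fell and 0 rose (at an unadjusted p under 0.05, 2 and 0), against 8.5% of all genes called lower and 8.97% called higher. The median log2 change was -0.05. Scube2, a secreted protein that helps release lipid-modified Shh from cells, had log2 levels of 6.93 to 7.27 in WT and 6.34 to 6.62 in CKO, and the groups did not overlap. It fell by 0.57 (SE 0.09, limma adjusted p = 7.76e-04). With the Xist level as a covariate Scube2 was at -0.41 and was no longer called (limma adjusted p = 0.102). Its dimmer probe ILMN_1258399 was at -0.07 (limma adjusted p = 0.727), so the Scube2 probes disagree. Its relative Scube1 was at -0.21 (limma adjusted p = 0.0928). Hhat and Disp1, which attach the lipid and release the ligand, were at -0.06 and -0.05. The co-receptors Cdon and Gas1 and the ligand Dhh were too dim to be tested.

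Among regulators inside the cell and at the cilium, Evc was the one called. Of 23 symbols 17 had a probe and 16 were tested, 1 fell and 0 rose (at an unadjusted p under 0.05, 1 and 1). That is 6.25% called, a share near the 8.5% of all genes called lower, and the median log2 change was 0.07. Evc, a protein of the ciliary base that acts just downstream of Smo, had log2 levels of 6.94 to 7.12 in WT and 6.58 to 6.83 in CKO. It fell by 0.36 (SE 0.08, limma adjusted p = 0.0068) with no overlap between the groups. With the Xist level as a covariate Evc was at -0.44 and was no longer called (limma adjusted p = 0.066). Its partner Evc2 was at 0.08 (95% interval -0.09 to 0.24). Protein kinase A restrains the pathway, though its subunits need not all act in that direction. The subunits Prkaca, Prkacb and Prkar1a were at 0.12, 0.18 and 0.12, none past the threshold (limma adjusted p = 0.215, 0.134 and 0.349).

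Most tested genes of a list named as targets of the pathway in granule progenitors were lower. Of 8 tested 5 fell and 0 rose (at an unadjusted p under 0.05, 5 and 0), against 8.5% of all genes called lower and 8.97% called higher. The median log2 change was -0.28. Bmi1, Bcl2 and Cdk6 were not called (-0.11, 0.01 and -0.05). The list leaves out the Gli targets Ptch1, Hhip and Gli1. Of these, Ptch1 and Hhip were not called (0.16 and -0.18), and Gli1 was too dim to be tested. Ccnd2, the D-type cyclin of these cells, had log2 levels of 10.67 to 10.91 in WT and 9.23 to 9.59 in CKO. It fell by 1.34 (SE 0.09, limma adjusted p = 1.6e-06), and the call held in every alternative. Sfrp1, a secreted Wnt modulator, changed by -0.64 (limma adjusted p = 0.0266), the homeobox factor Nkx2-2 by -0.43 (limma adjusted p = 0.0306), Foxm1, a factor of mitotic entry, by -0.28 (limma adjusted p = 0.0405) and Ccnd1 by -0.27 (limma adjusted p = 0.0491). These 4 had overlapping groups, and each was no longer called when WT.3, WT.2 or WT.1 or CKO.2 or CKO.1 was left out. Ccnd1 and Foxm1 also lost it without WT.4, and all but Nkx2-2 without CKO.4 (limma adjusted p from 0.0515 to 0.151, 0.00126 to 0.34 across alternative settings). With the Xist level as a covariate all 4 lost their call (limma adjusted p = 0.0722 for Sfrp1, 0.25 for Nkx2-2, 0.271 for Foxm1 and 0.334 for Ccnd1). The Ccnd1 probes ILMN_2601471 and ILMN_2669793 were not called (-0.18 and -0.37). In CKO.3 Sfrp1 was at 8.58 and Ccnd1 at 12.14, apart from the other CKO arrays at 7.83 to 7.92 and 11.84 to 11.87. Mycn and Atoh1 were too dim to be tested. These lists were written with earlier results of the same arrays known and are not separate evidence of a direction.

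**Figure D4:**
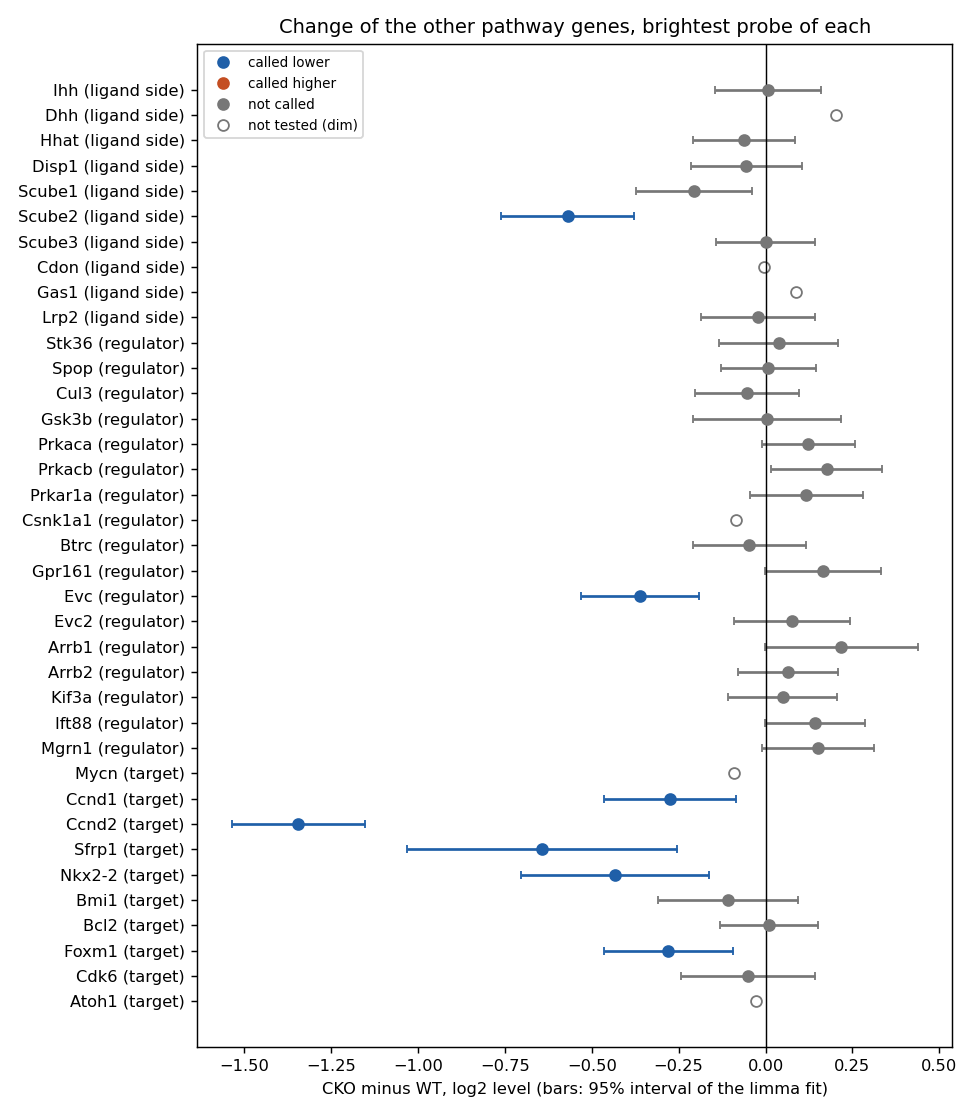
Difference CKO minus WT in log2 level for the brightest probe of each other pathway gene with a probe, with the 95% interval of the limma fit (n = 4 a group); open points were not tested. Scube2, Evc and 5 targets lie below 0 past the threshold, and no gene was called higher.

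Counts for markers of the other cell types stand against 8.5% of all genes called lower and 8.97% called higher. Of 10 tested markers of radial and Bergmann glia 1 fell (Vim, -0.37) and 1 rose (Tnc, 0.32), the latter no longer past the threshold without WT.4, CKO.1 or CKO.2 (limma adjusted p from 0.0531 to 0.0607, 0.00929 to 0.415 across alternative settings). Vim kept its call with any array left out but lost it in 2 of 22 alternative settings. At an unadjusted p under 0.05 the glial counts were 3 lower and 1 higher. Of 5 of the choroid plexus, another tissue known to make Shh, 2 fell, Otx2 (-1.91) and Ttr (-1.09; limma adjusted p = 2.45e-05 and 0.015), and Otx2 is also known from granule progenitors. At an unadjusted p under 0.05, 2 fell and Clic6 was higher (0.27). Ttr in CKO.3, at 8.38, lay within the WT range of 8.13 to 8.81, while the other CKO arrays were at 6.78 to 7.13, and Ttr lost its call without CKO.4 (limma adjusted p = 0.0511, 1.23e-05 to 0.4 across alternative settings). All 7 tested microglial markers rose, with a median log2 change of 0.60. Of 6 endothelial markers 1, Emcn, was called higher, a call lost without CKO.1, WT.2 or WT.1 (limma adjusted p from 0.06 to 0.0875, 0.0135 to 0.326 across alternative settings). At an unadjusted p under 0.05, 4 of the 6 were higher, and the median log2 change was 0.21.

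The pattern of Shh over the 8 arrays was most like that of Phlda3, Fblim1 and Ankrd12 among 12911 genes (Pearson r of 0.990, 0.988 and 0.988), which rose by 1.24, 0.68 and 0.37 (limma adjusted p = 3.21e-06, 3.77e-05 and 0.00223). The brightest Smo probe was most like Serp1, Kif18b and Blm (r of 0.985, 0.983 and 0.982). Kif18b and Blm fell by 0.68 and 0.49 (limma adjusted p = 0.00138 and 0.0127), and Serp1 was at -0.21 (limma adjusted p = 0.0794). With the group means removed, r was 0.68 to 0.81 for the genes like Shh and 0.95 to 0.97 for those like Smo, where CKO.3 is the array far from its group. These values describe 8 arrays and were the highest of many.

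Sex and genotype could be told apart only in part. Among the 5 arrays dim for Xist, WT.3 lay above all 4 CKO arrays on each Smo probe and below them on both Shh probes. With the Xist level as a covariate, the brighter Shh probe was at 0.40 (limma adjusted p = 0.0502) and the Smo probes at -0.57, -0.45 and -0.30 (limma adjusted p = 0.111, 0.0721 and 0.158). WT.3 alone against CKO, where the lone array is assumed to vary like CKO, gave 0.40 for Shh and -0.57, -0.43 and -0.29 for Smo (limma adjusted p = 0.093, 0.186, 0.0745 and 0.187). The calls of Shh and Smo were thus lost in both.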

How the data were processed

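Total RNA of 4 WT and 4 CKO cerebella was amplified into biotin-labelled cRNA and hybridised to Illumina arrays, per the labels' protocols. A deposited table gives each probe's linear intensity, exported with BeadStudio per the submitters' processing notes. No source used here gives its version or background handling. The other deposited table holds log2 values, quantile-normalized by the authors per its values, and was used as an alternative. No detection p-values or chip names were used. Of 25697 probes 23978 carry a symbol in the platform annotation. No source used here names the genome build of the probes.

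The intensity was analysed with limma 3.58.1 in R 4.3.3: normexp background correction with an offset of 50, which pulls the changes of dim probes towards 0, quantile normalization, log2, and lmFit with eBayes on genotype alone, two-sided, per probe. Probes with a mean above the lower quartile (19272) were tested, and p-values were Benjamini-Hochberg adjusted over them. Lists use the brightest probe of each gene, and listed genes were named where past the threshold, by smallest p in pathway lists and largest change in marker lists, or filled to 2 by smallest p. The 3 genes most like a called member were named by Pearson r. In simulated data of the CKO against WT comparison with 19272 probes, 79% of 100 changes of 0.5 log2 and 96% of 100 changes of 1 log2 were recovered, with 5 false calls among 180. The simulated noise was normal and independent between probes, only 200 probes changed, and there was no sex effect. These rates therefore need not hold for the real arrays. Alternatives covered background, normalization, filter, probe rule, array weights, moderation, a replicate block, left-out arrays and the Xist level. The members and lists were chosen with earlier results of these data known. The animals are the replicates, and precision is limited by the number of arrays. Matplotlib 3.10.9 under Python 3.11.15 drew the figures.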

Additional observations from a re-analysis of the deposited data

Results flagged for a closer look

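In 5 of the 74 groups of 4 arrays screened (each named probe in WT and in CKO) an array lay further from the others than Dixon's 95% critical value allows for its share of the group's range, and chance alone gives about 1 such group in 20. The brighter Shh probe had a log2 level of 8.11 in CKO.4 against 7.98 to 7.99 on the other CKO arrays. The Smo probe ILMN_2741611 had 6.64 in CKO.1 against 6.76 to 6.77. CKO.3 was the array apart for the other 3 genes: Scube1 was at 6.24 against 6.50 to 6.52, Ccnd1 at 12.14 against 11.84 to 11.87 and Sfrp1 at 8.58 against 7.83 to 7.92. The brightest Smo probe in CKO.3, at 8.65 against 7.99 to 8.22, did not pass this criterion.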

How the results depend on the processing

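The main counts were 1537 probes lower and 1571 higher, and 3 and 1 of the core genes' probes. With the Xist level as a covariate they were 555 and 451 over all probes and 0 and 0 of the core probes (limma; at an unadjusted p under 0.05, 3 lower and 1 higher), and with WT.3 alone against CKO 239 and 180, and 0 and 0 (at an unadjusted p under 0.05, 3 and 1). With the brightest probe or the mean of the probes of each gene, 1 core gene was lower and 1 higher, by construction, since the 3 Smo probes become 1 value. Leaving out an array gave 1072 to 1698 lower and 1012 to 1805 higher, with the count of higher probes at 1021 without WT.2 and 1012 without CKO.4. Of the core probes 3 were lower each time and 1 to 2 higher, the second being the dimmer Shh probe without CKO.3. Median scaling gave 1824 lower and 1053 higher, 36.6% higher among the calls against 50.5%, at a median change of -0.0076 over all tested probes. The dimmer Sufu probe, not called, ranged from -0.119 to 0.0209 with an array left out and changed sign without CKO.2. With the replicate block the counts were 1457 lower and 1465 higher, and the core counts stayed at 3 and 1. Of the target genes, Ccnd1 and Nkx2-2 lost their call under the block (limma adjusted p = 0.0602 and 0.0555). Same-numbered arrays deviated together with r of 0.06, -0.03, 0.14 and -0.05, within the -0.182 to 0.184 of differently numbered arrays. These values show no pairing by number but are too few to settle whether there is one. Without CKO.3, 2 regulators were called higher in place of 0, Gpr161 (0.23) and Arrb1 (0.30), and 6 Purkinje markers in place of 5, while 5 microglial markers were called in place of 7. The cause of these changes was not tested. With an offset of 16 the brighter Shh probe was at 0.49 and the Smo probes at -0.58, -0.64 and -0.58. In the exact permutation test, 7 of 11 pairs of core genes passed, and 0 of 21 when all pairs of tested genes were taken, a choice made after seeing the data (9 at an unadjusted p under 0.05). The brightness limit left Gli1 untested, and dim probes limit what can be seen of Gli3 and Sufu.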
